A study of Mus musculus with 24 samples.

Results

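Superoxide dismutases turn superoxide into hydrogen peroxide, and catalase, glutathione peroxidases and peroxiredoxins remove the peroxide. The 10 genes described here were chosen by name: the superoxide dismutases *Sod1*, *Sod2* and *Sod3*, the copper chaperone *Ccs*, catalase (*Cat*), the glutathione peroxidases *Gpx1* and *Gpx4*, the peroxiredoxins *Prdx1* and *Prdx5*, and thioredoxin (*Txn1*). They are 10 of the 24411 genes listed in each table of read counts, and all 10 passed the filter on low counts in each of the 7 fits behind the 8 comparisons described here. The *Sod1* row counts reads assigned to the mouse gene and is not a direct measure of the human *SOD1* transgene. How reads of the transgene were assigned is not stated, and some may be counted in this row, so that its differences between genotypes may not be those of the mouse gene alone.

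The study asked how astrocytes and microglia of the *SOD1* G93A mouse, a model of amyotrophic lateral sclerosis, differ from wild-type (WT) cells at rest and after an inflammatory stimulus. RNA was sequenced from primary cultures of postnatal mouse brain: astrocytes isolated by immunopanning with an antibody to HepaCAM, and microglia isolated by magnetic sorting for Cd11b, each in serum-free medium. Before the HepaCAM step, the astrocyte suspension was panned to remove microglia, endothelial cells and cells of the oligodendrocyte lineage. Quiescent astrocytes of both genotypes received PBS, and activated astrocytes received 3 ng/ml IL-1α, 30 ng/ml TNFα and 400 ng/ml C1q, proteins that activated microglia release. Quiescent WT microglia received PBS, and WT and *SOD1* G93A microglia received 50 ng/ml lipopolysaccharide (LPS), a component of bacterial membranes.

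Each of the 7 conditions had 3 libraries, 21 in all. Microglia of *SOD1* G93A mice without LPS were not analysed here, so that the effect of LPS in *SOD1* G93A microglia has no control. The transgene carries human *SOD1* with the G93A change under the human promoter and is present in every cell of the mouse, so that a difference between genotypes is not tied to the cell type in which the protein acts. The cells came from young mice, before the disease starts. Both media contained N-acetyl cysteine, a precursor of glutathione, and the microglial medium contained selenite, the selenium source for glutathione peroxidases.

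As background, *Sod1* acts with copper and zinc in the cytosol and receives its copper from *Ccs*, *Sod2* acts with manganese in mitochondria, and *Sod3* is secreted and acts outside the cell. Catalase breaks down peroxide in peroxisomes, *Gpx1* and *Gpx4* are selenoproteins that use glutathione, and peroxiredoxins take their electrons from thioredoxin. Microglia make superoxide with an NADPH oxidase when they are activated, and the transcription factor NRF2 controls many of the genes that supply glutathione and thioredoxin.

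Depth, the total of gene reads in a library, had a minimum of 2016139, a median of 5098168 and a maximum of 11570122. Quiescent WT astrocytes had 2016139, 3637657 and 9258718 reads in replicates 1 to 3, and quiescent *SOD1* G93A astrocytes had 9526331, 7251063 and 3292225. Activated WT astrocytes had 5047999, 6768201 and 5749391 reads, and activated *SOD1* G93A astrocytes had 3721779, 3929272 and 2135439. Depth varied within each genotype of quiescent astrocytes, most among the WT libraries. Quiescent WT microglia had 10157188, 2550560 and 6940651 reads. LPS-treated WT microglia had 8121620, 5098168 and 4674300 reads, and LPS-treated *SOD1* G93A microglia had 5917006, 11570122 and 4042840.

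Replicates differed by more than counting error, and some libraries stood apart from the other pair of their group. The spread between 2 replicates, as chi-square per degree of freedom (1 for counting error alone), ranged from 1.48 to 20.3 over the pairs. *SOD1* G93A LPS microglia replicate 3 differed from the others by 15.7 and 20.3, against 2.33 between those. WT LPS microglia replicate 1 differed by 14.0 and 12.8, against 1.63. WT quiescent astrocyte replicate 3 differed by 8.97 and 6.50, against 2.03, and *SOD1* G93A quiescent astrocyte replicate 1 by 6.47 and 9.87, against 2.79.

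Microglial and astrocyte markers were each highest in the cultures of that label. Astrocyte libraries also held many reads of oligodendrocyte-lineage and neuronal markers. The 15 microglial markers summed to 13787 to 14692 CPM (reads for every 1000000 gene reads of the library) in quiescent WT microglia, 4940.2 to 5385 in LPS-treated WT microglia, 5327 to 7041 in LPS-treated *SOD1* G93A microglia and 199 to 472 over the astrocyte libraries. *Csf1r* was the most abundant of them in quiescent microglia and in quiescent astrocytes. The 12 astrocyte markers summed to 4967 to 7258 over the astrocyte libraries, led by *Slc1a3*, and to 334 to 922 over the microglial libraries, led by *Glul*. Markers of the oligodendrocyte lineage summed to 2981 to 3573 in quiescent astrocytes, led by *Olig1*, and to 1079 to 1167 in activated astrocytes, and their part in the differences between those states was not tested. In quiescent microglia that list summed to 1349 to 1389, of which *Cspg4* made up 1229 on average. Neuronal markers summed to 459.7 to 1066 in astrocytes, led by *Map2*, and to 10.4 to 19.2 in microglia. Endothelial markers reached 156 at most, with no read of *Cldn5* in any library, pericyte and fibroblast markers 1286 at most, again led by *Cspg4*, and erythroid markers 0.937. In these bulk samples, fewer cells of a type and less RNA per cell cannot be told apart.

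Levels are given first, in CPM (mean ± SD, n = 3). *Sod1*, on chr16:90220754-90226329 of GRCm38 (plus strand), was highest in activated astrocytes, at 311 ± 27.0 in *SOD1* G93A and 302 ± 10.9 in WT cells. Quiescent *SOD1* G93A astrocytes had 268 ± 17.1, quiescent WT astrocytes 258 ± 24.3 and quiescent WT microglia 243 ± 13.8, and these 3 overlapped from each to the next. LPS-treated microglia were lowest, at 158 ± 14.6 in *SOD1* G93A and 142 ± 15.6 in WT cells, and overlapped each other. With the libraries scaled by median of ratios, the highest *Sod1* level was that of quiescent WT microglia, so that the place of microglia in this order depended on the scaling.

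*Sod2* (chr17:13006846-13040063, plus strand) covered the widest range among the intracellular dismutases. LPS-treated microglia had 1255 ± 40.2 in *SOD1* G93A and 1225 ± 84.5 in WT cells, and overlapped each other. Activated WT astrocytes had 198 ± 15.1, activated *SOD1* G93A astrocytes 168 ± 8.89, quiescent *SOD1* G93A astrocytes 117 ± 9.52, quiescent WT astrocytes 113 ± 5.20 and quiescent WT microglia 77.3 ± 7.12. Apart from the quiescent astrocytes of the 2 genotypes, neighbours in that sentence did not overlap. *Sod3* (chr5:52363791-52371418, plus strand) was highest in activated astrocytes, at 50.4 ± 7.12 in activated WT astrocytes and 35.9 ± 2.87 in activated *SOD1* G93A astrocytes, with no overlap. The other 5 conditions lay between 1.38 ± 0.260 in quiescent WT microglia and 4.17 ± 0.719 in quiescent *SOD1* G93A astrocytes. Quiescent astrocytes overlapped LPS-treated microglia in *Sod3*, and with median-of-ratios scaling LPS-treated WT microglia lay above both groups of quiescent astrocytes. *Ccs* (chr19:4825366-4839332, minus strand) was low throughout, from 7.45 ± 1.27 in LPS-treated WT microglia to 24.5 ± 2.20 in activated *SOD1* G93A astrocytes.

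Among the peroxide-removing enzymes, *Cat* (chr2:103453849-103485160, minus strand) was highest in quiescent WT microglia, at 255 ± 3.61, and lowest in quiescent *SOD1* G93A astrocytes, at 142 ± 18.6. *Gpx1* (chr9:108338903-108340343, plus strand) was also highest in quiescent WT microglia, at 485 ± 26.1, and lowest in LPS-treated WT microglia, at 86.0 ± 15.7. *Gpx4* (chr10:80047166-80056439, plus strand) was highest in activated astrocytes, at 357 ± 10.6 in WT and 352 ± 29.7 in *SOD1* G93A cells, which overlapped, and lowest in LPS-treated *SOD1* G93A microglia, at 173 ± 1.12. Both peroxiredoxins were microglial in their order. *Prdx1* (chr4:116685544-116700822, plus strand) ran from 1073 ± 344 in LPS-treated *SOD1* G93A microglia, 770.4 ± 81.5 in LPS-treated WT microglia and 567 ± 24.2 in quiescent WT microglia down to 267 ± 39.7 in quiescent WT astrocytes, and the LPS-treated microglia of the 2 genotypes overlapped. *Prdx5* (chr19:6906697-6910106, minus strand) had 1037 ± 17.3 in LPS-treated *SOD1* G93A microglia, 1035 ± 156 in LPS-treated WT microglia, 216 ± 6.19 in quiescent WT microglia, with overlap between the first pair alone, and 74.8 ± 10.8 in quiescent WT astrocytes. *Txn1* (chr4:57943373-57956411, minus strand) was highest in quiescent *SOD1* G93A astrocytes, at 335 ± 63.4, followed by quiescent WT astrocytes at 184 ± 66.7, and lowest in quiescent WT microglia, at 76.0 ± 3.32. The place of LPS-treated microglia depended on the scaling, and by median of ratios both genotypes of these lay above quiescent WT and all activated astrocytes in *Txn1*. With median-of-ratios scaling, 8 of the 10 genes kept their highest condition and 3 kept the whole order of conditions. *Gpx4* was the other gene whose highest condition changed, to activated *SOD1* G93A astrocytes. With that scaling, the lowest condition became quiescent *SOD1* G93A astrocytes for *Gpx1* and quiescent WT astrocytes for *Gpx4*.

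**Figure D1:**
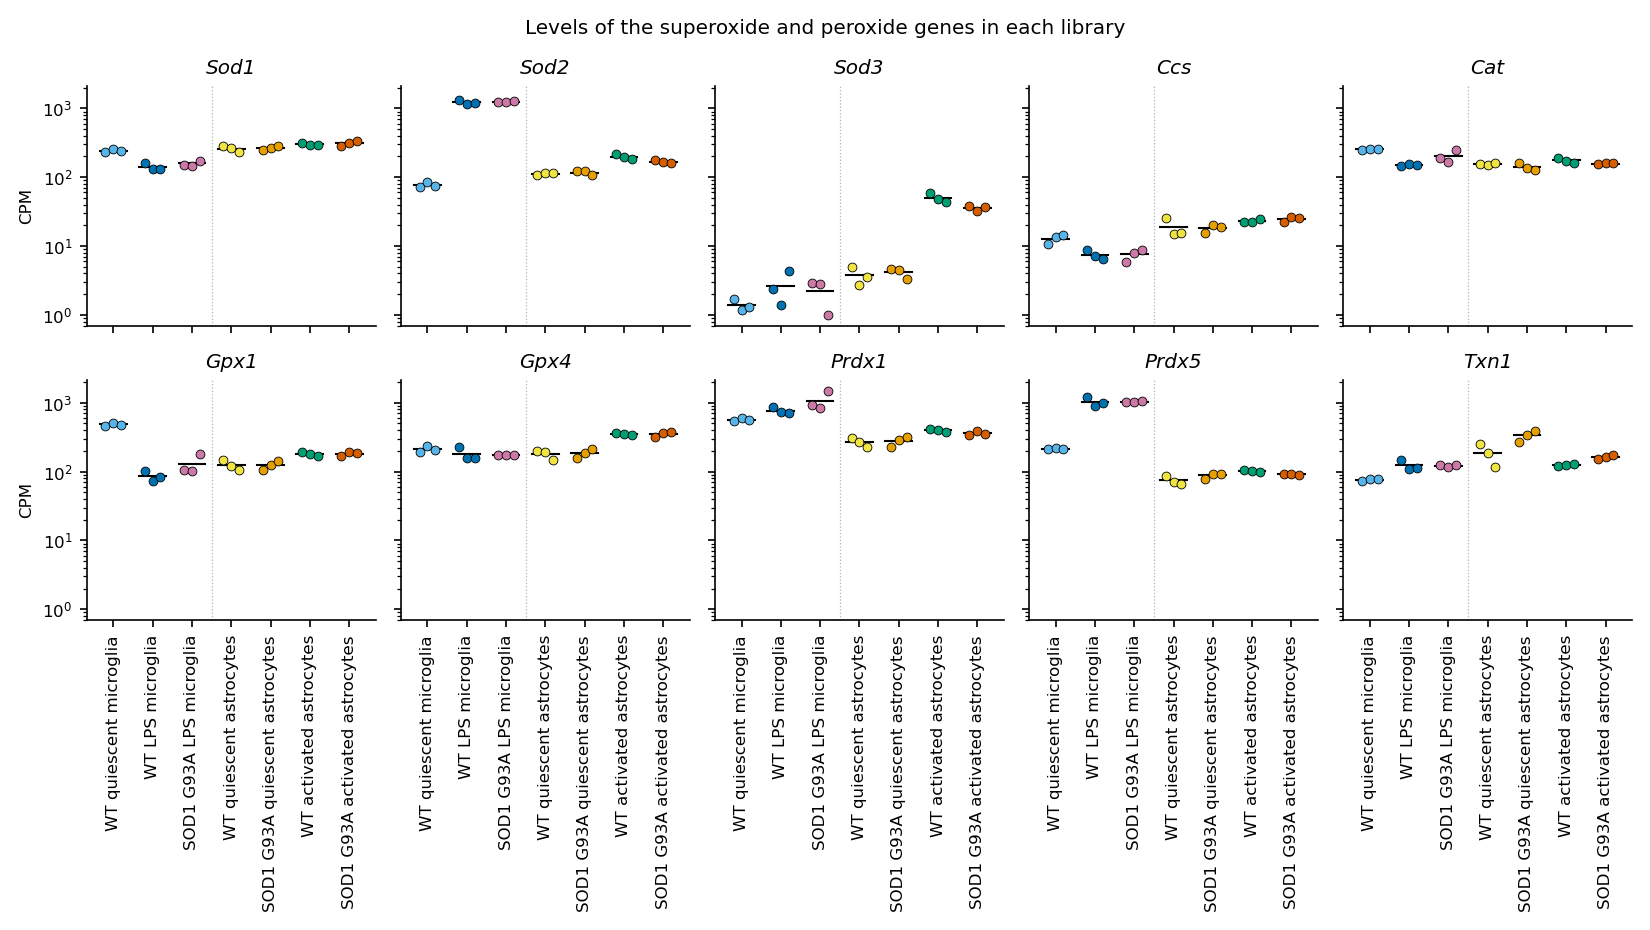
Level of each of the 10 genes in CPM (log axis) in each of the 21 libraries, as points, with a bar at the mean of each condition; the dotted line separates microglia (left) from astrocytes (right). *Prdx5* is at 906 or more in all LPS-treated microglia and *Sod2* at 1151 or more, and *Sod3* is at 32.6 or more in activated astrocytes and at 4.96 or less in every other library.

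Genes are compared with each other per kilobase of the principal transcript, which is 641 bases for *Sod1* and 5861 bases for *Sod2*. In quiescent WT microglia, *Gpx1* had 453 CPM per kilobase, *Sod1* 379, *Gpx4* 222, *Prdx5* 171, *Cat* 97.7, *Txn1* 72.3, *Sod2* 13.2, *Ccs* 11.9 and *Sod3* 0.370. *Prdx1* has 2 principal transcripts of 877 and 2294 bases and had 646 or 247, so that its place at the top depended on the transcript taken. In LPS-treated WT microglia the order was different, with *Prdx1* at 878 or 336, *Prdx5* at 820.1, *Sod1* at 221, *Sod2* at 209, *Gpx4* at 189.9 and *Gpx1* at 80.2. Quiescent WT astrocytes were led by *Sod1*, at 403 per kilobase, over *Prdx1* at 305 or 117, *Gpx4* at 188 and *Txn1* at 175. Which transcripts were expressed was not measured.

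Some reads may not be told apart between genes that share sequence, and how such reads were assigned was not measured. Of the stretches of 50 bases in *Gpx4* transcripts, 51.4% also occurred in another gene, against 23.1% for *Sod1*, 8.99% for *Prdx1*, 2.50% for *Txn1* and 1.62% for *Sod2*, and the other 5 genes shared none. The matching genes found for *Gpx4*, *Sod1*, *Prdx1* and *Txn1* are not among the 24411 genes listed. Exons of *Prdx5* overlapped those of *Trmt112* on the opposite strand over 409 bases, and *Trmt112* had at most 831 reads in a library.

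LPS changed nearly the whole set in WT microglia. Rose and fell are used for an adjusted p below 0.05 in limma (Benjamini-Hochberg over all genes tested) at any fold change. Of the 10 genes, 4 rose, against 28.6% of the 10866 genes tested, and 4 fell, against 28.3%. The limits of the study (adjusted p below 0.001 and more than 2-fold) were passed by 3 of the 10, against 20.8% of genes. The median log2 fold change was 0.31 over the 10 genes and 0.00 over all genes. Most genes tested changed in this comparison, so that the counts by themselves say little about the set, and the size of each change is given.

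*Sod2*, the mitochondrial dismutase, had normalized counts of 376, 459 and 385 in quiescent WT microglia and 7856, 7216 and 7339 in LPS-treated WT microglia. Every LPS library was far above every quiescent library. *Sod2* rose 18.4-fold, a log2 fold change of 4.20 (95% CI 3.99 to 4.41, adjusted p = 1.57e-10). *Sod1* had 1195, 1386 and 1253 counts in quiescent microglia and 952, 825 and 813 after LPS. All LPS libraries were lower, without overlap, and *Sod1* fell by 0.57 on the log2 scale (adjusted p = 0.000493). *Ccs*, which loads copper into the *Sod1* protein, had 54.8, 71.5 and 74.9 counts and then 52.9, 44.3 and 39.1. The LPS libraries were lower without overlap, and *Ccs* fell by 0.55 on the log2 scale (adjusted p = 0.0279), a call that was lost in DESeq2 (adjusted p = 0.0798) and without WT quiescent replicate 2 (0.083) or 3 (0.113) or WT LPS replicate 2 (0.0611) or 3 (0.0877), with a range of 0.0103 to 0.113 over all alternatives. *Sod3*, the secreted dismutase, was near the limit of detection, with 17, 3 and 9 reads in quiescent and 19, 7 and 20 reads in LPS-treated microglia. Its mean normalized count was 7.25 in quiescent and 16.2 in LPS-treated microglia, so that it reached the filter, a mean of 10, through the LPS group alone. Its log2 fold change of 0.94 did not pass (adjusted p = 0.0791). Without WT LPS replicate 2 it was at 1.30 (adjusted p = 0.0221, range 0.0221 to 0.159), which is not read as a rise.

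Among the peroxidases of the set, *Prdx5*, a peroxiredoxin of mitochondria, peroxisomes and cytosol, had 1099, 1197 and 1112 counts in quiescent and 7206, 5679 and 6029 in LPS-treated WT microglia. The groups were far apart, and *Prdx5* rose 5.52-fold (log2 2.46, 95% CI 2.25 to 2.68, adjusted p = 9.27e-09). *Gpx1*, the cytosolic glutathione peroxidase, moved the other way. It had 2373, 2749.6 and 2538 counts in quiescent microglia and 615, 455 and 500.03 after LPS, and fell by 2.29 on the log2 scale, 4.90-fold (95% CI -2.55 to -2.04, adjusted p = 5.05e-08). *Cat* had 1302, 1361 and 1362 counts and then 879, 975 and 922, with no overlap. It fell by 0.54 on the log2 scale (adjusted p = 0.000193). *Prdx1* had 2826, 3187 and 2928 counts in quiescent and 5156, 4546 and 4391 in LPS-treated microglia. The LPS libraries were all higher, and *Prdx1* rose by 0.65 on the log2 scale (adjusted p = 0.000108). *Gpx4*, which reduces lipid peroxides in membranes, overlapped between states, with a log2 fold change of -0.03 (95% CI -0.34 to 0.29, adjusted p = 0.887). Without WT LPS replicate 1, the highest library, *Gpx4* was at -0.19 (adjusted p = 0.0544, range 0.0544 to 0.966). *Txn1*, the electron donor of the peroxiredoxins, had 372, 419 and 409 counts in quiescent and 883, 689.6 and 685 in LPS-treated microglia, with no overlap. It rose by 0.90 on the log2 scale (adjusted p = 6.6e-05).

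The genes around the set moved in both directions with LPS, as did genes in general. Of the 72 genes of the 7 pathway lists that were tested, 50.0% rose, against 28.6% of all genes, and 25.0% fell, against 28.3%, with 21 past the limits of the study (29.2%, against 20.8%). Of the 8 measured genes of the superoxide-producing NADPH oxidase, 5 rose and 2 fell, with a median log2 fold change of 0.47. The catalytic subunit *Cybb* rose by 2.55 (adjusted p = 5.52e-08) and the regulatory subunit *Ncf4* by 2.31 (adjusted p = 5.26e-09), and *Cyba*, the partner of *Cybb*, was at 0.19 (adjusted p = 0.21). In glutathione synthesis and recycling, 7 of 12 rose and 3 fell (median 0.52), with the cystine transporter *Slc7a11* at 3.86 (adjusted p = 6.65e-08), glutathione reductase *Gsr* at 2.29 (5.74e-09) and the microsomal transferase *Mgst3* at -3.22 (4.98e-07). In the thioredoxin and glutaredoxin system, 5 of 13 rose and 3 fell (median 0.04), with glutaredoxin *Glrx* at 1.97 (1.16e-08) and thioredoxin reductase *Txnrd1* at 0.70 (3.78e-05). Of NRF2 and its targets, 8 of 17 rose and 6 fell (median 0.34), with *Nfe2l2*, which encodes NRF2, at 0.36 (0.00391). Of metallothioneins and copper handling, 4 of 9 rose and 1 fell (median 0.13), with the copper transporter *Slc31a2* at 3.59 (1.40e-09). Of selenoprotein synthesis and supply, 4 of 8 rose and 2 fell (median 0.11), with the selenoprotein P receptor *Lrp8* at -2.22 (1.83e-07). Of the 5 other peroxidases measured, 3 rose and 1 fell (median 0.39). Of the 15 microglial markers, 1 rose and 12 fell in the same comparison (median -1.53). Astrocyte markers rose in 2 of 10 and fell in 1, and oligodendrocyte-lineage markers rose in 2 of 6 and fell in 2. Endothelial markers rose in 2 of 4 and fell in 2, and pericyte and fibroblast markers rose in 2 of 7 and fell in 1. The 1 neuronal marker tested did not pass. The part of these marker shifts in the results was not tested.

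In WT astrocytes, the cytokine mixture raised most of the set. Of the 10 genes, 7 rose, against 19.1% of the 12336 genes tested, and 0 fell, against 19.2%. An unadjusted p below 0.05 in limma was reached by 9 of the 10, against 46.8% of genes. *Cat* and *Txn1* were among the 9 and did not pass after adjustment. After adjustment, edgeR also called 7, and DESeq2 called 7 with *Txn1* in place of *Sod1*. The limits of the study were passed by 2 of the 10, against 11.5% of genes, and the median log2 fold change was 0.54 over the 10 genes and 0.01 over all genes. *Sod3* had normalized counts of 23.3, 13.1 and 17.6 in quiescent and 283, 235 and 219.9 in activated WT astrocytes, from 10, 10 and 33 reads and then 294, 329 and 255. Every activated library was above every quiescent library. *Sod3* rose 13.2-fold (log2 3.73, 95% CI 3.26 to 4.19, adjusted p = 2.15e-07). *Sod2* had 501, 554 and 569 counts in quiescent and 1041, 939 and 913 in activated astrocytes. The states did not overlap, and *Sod2* rose 1.78-fold (log2 0.83, adjusted p = 2.71e-05). *Sod1* had 1314, 1254 and 1146 counts and then 1529, 1415 and 1479.7. The activated libraries were higher without overlap, by 0.25 on the log2 scale (adjusted p = 0.0367), a call that was lost in DESeq2 (0.052), without the trend in limma (0.0874) and without WT quiescent replicate 2 (0.0958) or activated replicate 1 (0.146), 2 (0.0815) or 3 (0.113). Over all alternatives its adjusted p ranged from 0.000294 to 0.146. *Ccs* was at 0.36 (adjusted p = 0.151) and passed without WT quiescent replicate 1, at 0.59 (0.00513, range 0.00513 to 0.42).

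*Gpx4* had 927, 934 and 727 counts in quiescent and 1786, 1726 and 1714 in activated WT astrocytes. The states were well apart, and *Gpx4* rose 2.03-fold (log2 1.02, 95% CI 0.79 to 1.25, adjusted p = 1.74e-05). *Gpx1* had 683, 579.96 and 526 counts and then 938, 883 and 848. It rose without overlap by 0.58 on the log2 scale (adjusted p = 0.00106). *Prdx1* rose by 0.62 (adjusted p = 0.00051) and *Prdx5* by 0.49 (adjusted p = 0.00264), both also without overlap. *Cat* was at 0.21 (adjusted p = 0.0921) and passed without WT quiescent replicate 3, at 0.26 (0.0139, range 0.0139 to 0.33). *Txn1* had 1174, 891 and 576 counts in quiescent and 580.5, 609.7 and 645 in activated WT astrocytes. The quiescent libraries spread more widely than the states differed, and replicate 3, the deepest of them, lay below every activated library. *Txn1* did not pass, at -0.47 (95% CI -0.91 to -0.03, adjusted p = 0.0894). It passed in DESeq2 (adjusted p = 0.0175) and without WT quiescent replicate 3, at -0.74 (adjusted p = 2.72e-05), and was at -0.23 without replicate 1, with adjusted p from 2.72e-05 to 0.227 over all alternatives. With depth as a covariate, an alternative added after seeing the data, all 10 genes passed in WT astrocytes, in a fit that called 6308 of all genes in place of 4722, with *Ccs* at 0.49 (adjusted p = 0.0129), *Cat* at 0.18 (0.0454) and *Txn1* at -0.24 (0.0136).

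Of the 78 genes of the 7 pathway lists tested in activated WT astrocytes, 46.2% rose, against 19.1% of all genes. Another 6.41% fell, against 19.2%. Most of the NRF2 list rose, 15 of 17 with a median log2 fold change of 1.04, among them *Osgin1* at 2.59 (adjusted p = 0.000333), the ferritin chain *Fth1* at 2.03 (2.21e-07), *Maff* at 2.01 (1.70e-05) and *Nfe2l2* at 1.12 (1.56e-05). In glutathione synthesis and recycling, 8 of 14 rose (median 0.61), with *Slc7a11* at 4.37 (5.65e-09), *Mgst1* at 2.01 (3.83e-06) and *Gsr* at 0.59 (0.00315). In the thioredoxin and glutaredoxin system, 5 of 13 rose and 1 fell (median 0.20), with sulfiredoxin *Srxn1*, which repairs overoxidized peroxiredoxins, at 2.94 (3.39e-06) and *Txnrd1* at 0.77 (0.000879). Of metallothioneins and copper handling, 5 of 10 rose and 1 fell (median 0.43), with *Slc31a2* at 2.53 (7.78e-07) and metallothionein *Mt2* at 1.78 (2.10e-07). Of the 9 measured NADPH oxidase genes, 1 rose (median -0.19), *Cyba* at 1.15 (0.000109), beside *Cybb* at -0.21 (0.46). Of the 8 selenoprotein genes, 1 fell (median -0.05), and of the 7 other peroxidases measured, 2 rose and 2 fell (median 0.29). In all, 18 of 78 genes of the lists passed the limits of the study (23.1%, against 11.5% of all genes).

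Activation of *SOD1* G93A astrocytes was read from a joint fit of the 12 astrocyte libraries. Of the 10 genes, 7 rose, against 21.9% of the 12269 genes tested, and 1 fell, against 21.5%, with 2 past the limits of the study, against 13.3%. *Sod3* had scaled counts of 21.3, 20.2 and 14.6 in quiescent and 176, 154 and 179 in activated *SOD1* G93A astrocytes. The groups were far apart, and it rose 8.77-fold (log2 3.13, adjusted p = 1.36e-09). *Gpx4* rose by 1.01 on the log2 scale (adjusted p = 8.66e-07), *Gpx1* by 0.64 (0.000127), *Sod2* by 0.60 (4.06e-05) and *Prdx1* by 0.49 (0.00141). *Ccs* rose by 0.52 (0.0205), which was lost without *SOD1* G93A activated replicate 2 (0.0738) or 3 (0.0601) or quiescent replicate 1 (0.0778), over a range of 0.00418 to 0.0778. *Sod1* rose by 0.30 (0.0101), which was lost without *SOD1* G93A activated replicate 3 (0.0573, range 0.00363 to 0.0573). *Txn1* had 1228, 1531 and 1712 scaled counts in quiescent and 722, 777 and 836 in activated cells. The activated libraries were all lower, and *Txn1* fell by 0.93 on the log2 scale (adjusted p = 0.000436). *Prdx5* was at 0.12 (0.317), and *Cat* at 0.24 (0.0648) passed without *SOD1* G93A quiescent replicate 1 (0.37, adjusted p = 0.00407) or WT quiescent replicate 3 (0.0433), over a range of 0.00407 to 0.288. Of the pathway lists, 16 of 78 genes passed the limits of the study (against 13.3% of all genes), led by *Slc7a11* at 4.28 (5.17e-13) and *Srxn1* at 3.08 (1.46e-09). In the same contrast, 5 of the 14 microglial markers measured fell (median -0.66), and of the 12 astrocyte markers 1 rose and 7 fell (median -0.54). Oligodendrocyte-lineage markers fell in 6 of 10 and rose in 1 (median -0.69), neuronal markers rose in 4 of 9 and fell in 3 (median -0.17), pericyte and fibroblast markers rose in 3 of 6 and fell in 2 (median 0.56), and the 1 endothelial marker tested rose by 4.41. In WT astrocytes, 1 astrocyte marker rose and 9 fell (median -0.81), and 0 microglial markers passed (median 0.01). Neuronal markers there rose in 5 of 9 and fell in 1 (median 1.02), oligodendrocyte-lineage markers fell in 5 of 10 and rose in 1 (median -0.90), pericyte and fibroblast markers rose in 2 of 7 and fell in 2 (median 0.21), and the endothelial marker rose by 4.02. The part of these shifts in the results was not tested.

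The difference between the responses of the 2 genotypes was tested directly. Of the 10 genes, 0 differed in limma, against 0.277% of the 12269 genes tested, with 1 at an unadjusted p below 0.05, against 8.30% of genes, and 0 in edgeR. That gene was *Prdx5*, at -0.37 on the log2 scale (*SOD1* G93A response minus WT response, 95% CI -0.65 to -0.09, adjusted p = 0.427). *Sod3* was at -0.59 (95% CI -1.20 to 0.02, adjusted p = 0.615) and *Txn1* at -0.46 (-0.99 to 0.08, 0.672). *Sod1* was at 0.05 (-0.21 to 0.31, 0.939), and the other 6 genes lay between -0.23 (*Sod2*) and 0.16 (*Ccs*). *Txn1* was at -0.69 without WT quiescent replicate 1 and at -0.18 without WT quiescent replicate 3, *Sod3* at -0.39 without WT quiescent replicate 2, and *Ccs* at -0.06 without WT quiescent replicate 1.

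**Figure D2:**
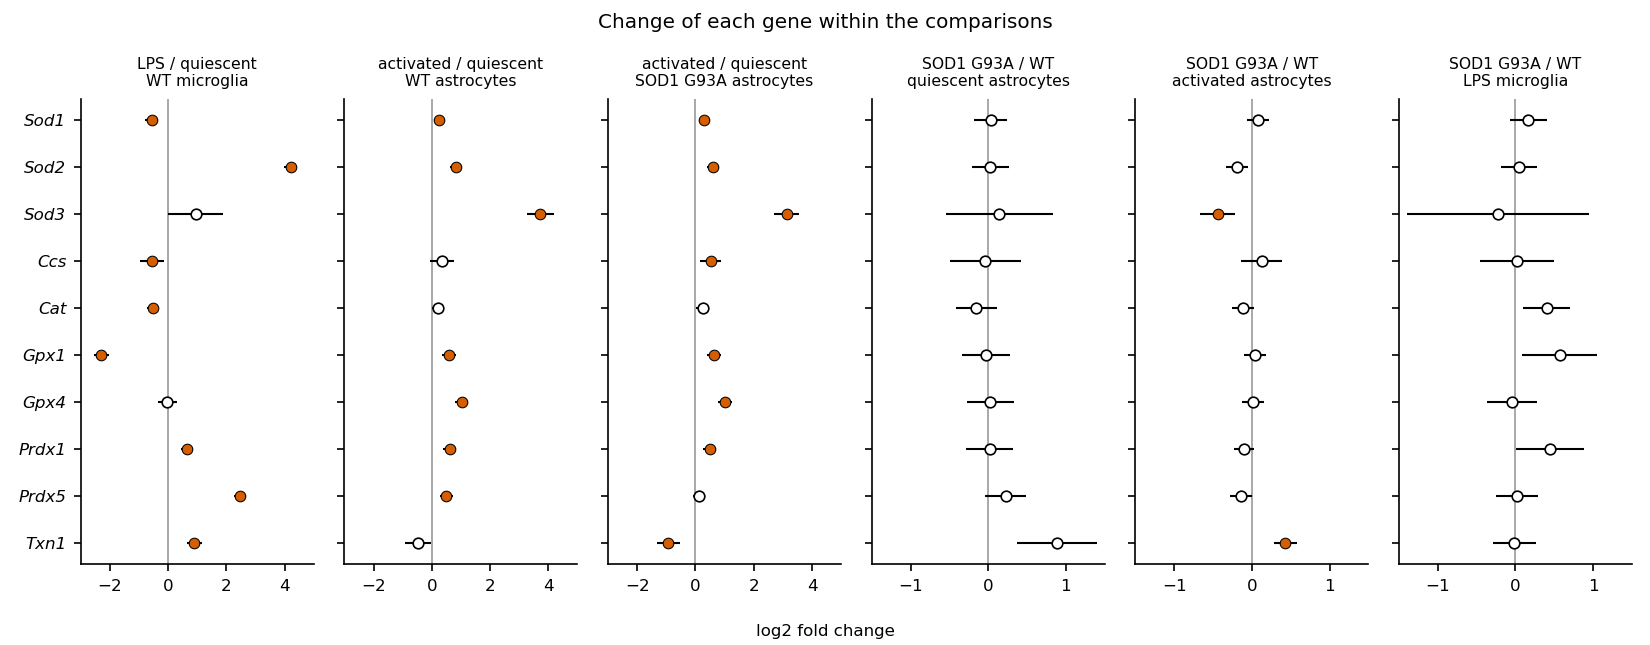
Log2 fold change of each gene (points) with its 95% confidence interval (lines) in 6 comparisons of 3 against 3 libraries; filled points have an adjusted p below 0.05 in limma, and the 3 panels at the left use a wider axis than the 3 at the right. *Sod2* reaches 4.20 with LPS in microglia and *Sod3* 3.73 with activation in WT astrocytes, while the filled points between genotypes are *Txn1* (0.43) and *Sod3* (-0.44) in activated astrocytes.

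Between genotypes in quiescent astrocytes, 0 of the 10 genes passed in limma, against 0.057% of the 12271 genes tested, with 1 (*Txn1*) at an unadjusted p below 0.05, against 8.70% of genes. edgeR called 0 of them and DESeq2 called 1, again *Txn1*. *Txn1* had 1238, 928 and 597 normalized counts in WT and 1343, 1690.2 and 1911 in *SOD1* G93A quiescent astrocytes. The *SOD1* G93A libraries were all higher, and within each genotype the deeper libraries had the lower values. In CPM, *Sod1*, *Gpx1*, *Gpx4* and *Prdx1* also fell with depth within both genotypes, and the remaining genes of the set did not. The part of depth in these values was not tested. For *Txn1*, the log2 fold change was 0.89 (95% CI 0.37 to 1.40, limma adjusted p = 0.327), with an adjusted p of 0.0132 in DESeq2. It ranged from 0.61 without WT quiescent replicate 3 to 1.13 without WT quiescent replicate 1, and adjusted p over all alternatives from 3.05e-11 to 0.994. With depth as a covariate, added after seeing the data, *Txn1* was at 1.13 (adjusted p = 3.05e-11) and *Prdx5* at 0.30 (0.017, range 0.017 to 0.994), in a fit that called 2359 genes in place of 7. The *Sod1* row had 1385, 1307 and 1187 counts in WT and 1259, 1319 and 1384 in *SOD1* G93A cells. The genotypes overlapped, at 0.03 on the log2 scale (95% CI -0.18 to 0.25, adjusted p = 0.933). The other 8 genes lay between -0.15 (*Cat*) and 0.23 (*Prdx5*). Among these, *Sod3* moved from 0.15 to 0.35 without WT quiescent replicate 1 and to -0.05 without replicate 2, and *Ccs* from -0.04 to 0.19 without replicate 1. *Cat* moved to -0.27 without *SOD1* G93A quiescent replicate 1 and to -0.07 without *SOD1* G93A quiescent replicate 3. No gene of the pathway lists passed in limma, with *Cyba* at 0.63 (adjusted p = 0.314), *Cybb* at 0.48 (0.514), *Nfe2l2* at -0.23 (0.665), *Txnrd1* at -0.28 (0.608) and *Gsr* at -0.24 (0.633). Microglial markers summed to 319 to 472 CPM in these *SOD1* G93A libraries and 199 to 364 in the WT libraries, and 0 of 14 passed (median 0.57). Of the other markers, 1 of 10 of the oligodendrocyte lineage and 1 of 5 of pericytes and fibroblasts passed, both lower. The part of these markers in the values was not tested.

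Between genotypes in activated astrocytes, 1 of the 10 genes was higher in *SOD1* G93A cells, against 4.6% of the 12098 genes tested, and 1 was lower, against 2.66%. The limits of the study were passed by 0 of the 10, against 0.645%. *Txn1* had 500.1, 526 and 553 counts in WT and 662, 709 and 761 in *SOD1* G93A activated astrocytes. All *SOD1* G93A libraries were higher, by 1.35-fold (log2 0.43, 95% CI 0.28 to 0.58, adjusted p = 0.000417). That call was lost without the trend in limma (0.43, adjusted p = 0.0657) and with depth as a covariate (0.33, 0.277), over a range of 2.58e-06 to 0.277. *Sod3* had 244, 203 and 188 counts in WT and 162, 141 and 163 in *SOD1* G93A cells. All *SOD1* G93A libraries were lower, by 1.36-fold (log2 -0.44, 95% CI -0.67 to -0.21, adjusted p = 0.016). The call was lost without the trend (-0.44, 0.139), with depth as a covariate, where the value was larger (-0.63, 0.111), without WT activated replicate 1 (-0.33, 0.174) and without *SOD1* G93A activated replicate 2 (-0.37, 0.0823), over a range of 0.00272 to 0.174.

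*Sod2* had 897, 810.02 and 783 counts in WT and 757, 729 and 688 in *SOD1* G93A activated astrocytes. The *SOD1* G93A libraries were lower without overlap, at -0.19 on the log2 scale, and did not pass (adjusted p = 0.0974). It passed without *SOD1* G93A activated replicate 1 (-0.23, 0.0484), after quantile normalization (-0.23, 0.0455) and with replicate number as a block (-0.19, 0.0372). Over all alternatives its adjusted p ranged from 0.0372 to 0.705. The *Sod1* row was at 0.08 (95% CI -0.06 to 0.22, adjusted p = 0.553), and the other 6 genes lay between -0.14 (*Prdx5*, adjusted p = 0.27) and 0.12 (*Ccs*, 0.646). Of the 76 genes of the pathway lists that were tested, 6 were higher (7.89%, against 4.6% of all genes). Another 3 were lower (3.95%, against 2.66%), and 0 passed the limits of the study. The smallest adjusted p of these lists belonged to *Sepp1* (selenoprotein P, 0.43, 0.0033), *Chac1* (glutathione breakdown, 1.33, 0.00369) and *Mt2* (-0.35, 0.0116). *Cybb* was at 0.06 (0.889), *Cyba* at -0.15 (0.509), *Nfe2l2* at -0.07 (0.543), *Txnrd1* at -0.17 (0.0995) and *Gsr* at -0.19 (0.177). Cell-type markers moved in the same comparison: of 9 neuronal markers 3 were lower (median -0.59), of 11 astrocyte markers 4 were higher and 2 lower (median 0.08), of 10 oligodendrocyte-lineage markers 1 was higher and 2 lower, and the 1 endothelial marker tested and 1 of 7 pericyte and fibroblast markers were lower. Their part in these values was not tested.

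Between genotypes in LPS-treated microglia, 0 of the 10 genes passed in limma, against 0.00936% of the 10679 genes tested, with 3 at an unadjusted p below 0.05, against 8.71% of genes, and edgeR and DESeq2 called 0 each. *Cat* had 873, 967 and 922 counts in WT and 1191, 1030.4 and 1464 in *SOD1* G93A microglia. *Gpx1* had 611, 451 and 500.09 in WT and 651, 633 and 1091 in *SOD1* G93A microglia. *Prdx1* had 5120.0, 4509 and 4391 in WT and 5688, 5118 and 8745 in *SOD1* G93A microglia. In each of these, replicate 3 of the *SOD1* G93A microglia, the library that stood apart above, was the highest, and *Cat* and *Gpx1* did not overlap between genotypes. *Cat* was at 0.40 on the log2 scale (adjusted p = 0.571), *Gpx1* at 0.57 (0.571) and *Prdx1* at 0.44 (0.573). Without that library they were at 0.27 (adjusted p = 0.886), 0.31 (0.893) and 0.21 (0.893), the ranges over all alternatives being 0.196 to 0.886, 0.262 to 0.893 and 0.263 to 0.893. The *Sod1* row had 945, 818 and 813 counts in WT and 943, 905 and 1042 in *SOD1* G93A microglia. The genotypes overlapped, at 0.17 (95% CI -0.08 to 0.41, adjusted p = 0.622). *Sod2* was at 0.04 (adjusted p = 0.904), *Ccs* at 0.02 (0.984), *Prdx5* at 0.02 (0.968), *Txn1* at -0.02 and *Gpx4* at -0.04 (0.932). Without WT LPS replicate 1, *Gpx4* was at 0.12, *Prdx5* at 0.12 and *Txn1* at 0.10. Over all alternatives, *Ccs* ran from -0.09 to 0.17. *Sod3*, with 4 to 33 reads in these libraries, was at -0.23 (adjusted p = 0.897) and had no stable sign, at 0.25 without *SOD1* G93A replicate 3, 0.17 without WT LPS replicate 3 and -0.58 without WT LPS replicate 2. *Cybb* was at 0.29 (adjusted p = 0.613), *Cyba* at -0.06 (0.893), *Nfe2l2* at -0.02 (0.965), *Txnrd1* at 0.18 (0.675) and *Gsr* at 0.05 (0.889), and no gene of the pathway lists passed in limma.

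The responses of the 2 cell types were compared as the LPS response of WT microglia minus the cytokine response of WT astrocytes. Agents, media, donor ages and isolation differed along with the cell type, and these cannot be told apart. Of the 10 genes, 3 had a higher response in microglia, against 20.1% of the 12334 genes tested, and 6 a lower one, against 20.9%, with 6 past the limits of the study, against 15.2%. *Sod2* was higher by 3.39 on the log2 scale (adjusted p = 4.1e-10), *Prdx5* by 2.00 (8.72e-08) and *Txn1* by 1.39 (0.000565). *Gpx1*, which fell in microglia and rose in astrocytes, was at -2.85 (1.06e-08), *Sod3*, with 3 to 20 reads in each microglial library, at -2.74 (0.000349) and *Gpx4* at -1.02 (0.000633). *Sod3* met the filter largely through activated WT astrocytes, at 50.4 CPM against 1.38 in quiescent WT microglia. Its value, among the 6 past the limits of the study, is therefore not read as a result about microglia. *Ccs* was at -0.89 (0.0204), which was lost without WT activated astrocyte replicate 3 (0.0522), WT quiescent astrocyte replicate 2 (0.0584) or WT quiescent microglia replicate 3 (0.0531), over a range of 0.00324 to 0.0584. *Sod1* was at -0.80 (0.000163), *Cat* at -0.72 (0.000257) and *Prdx1* at 0.06 (0.773). Of the pathway lists, 22 of 77 genes passed the limits of the study (28.6%), with *Cybb* at 2.78 (2.00e-06) and *Ncf4* at 2.84 (4.23e-05) higher and *Osgin1* at -3.33 (6.60e-05) and *Srxn1* at -2.08 (9.90e-05) lower. Cell-type markers moved in the same contrast. Of 15 microglial markers, 1 was higher and 10 lower (median -1.70). Of 11 astrocyte markers, 6 were higher and 2 lower (median 0.96), and of 11 of the oligodendrocyte lineage, 4 and 2 (median 0.56). Endothelial markers were higher in 2 of 4 and lower in 1. Pericyte and fibroblast markers were higher in 2 of 8 and lower in 2, and neuronal markers higher in 1 of 7. Their part in these values was not tested.

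The genes most like the dismutases over the 7 conditions were found among 9923 genes by Pearson's r of the log2 mean levels, as a description. *Sod1* was closest to *Kank2* (0.996), *Zmat3* (0.996) and *Higd2a* (0.995). *Sod2* was closest to *Ikbke* (0.999), *Thbs1* (0.995) and *Adprh* (0.994). *Sod3* was closest to *Chil1* (0.996), *Cdc42bpg* (0.995) and *1110008P14Rik* (0.995). These r values rest on 7 points each, which share libraries and sequencing depth. They were computed on CPM, and the order of the conditions for *Sod1* and *Sod3* changed with median-of-ratios scaling.

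The promoters of the genes were searched because *Sod2*, *Prdx5*, *Txn1* and *Prdx1* rose together with LPS. The promoter table used here, from RefSeq (GRCm38.p6), had an entry for 8 of the 10 genes, with 11 starts, and those of *Sod3* and *Ccs*, absent from that table, were not searched. In the 250 bases before each start, both strands were searched for the NF-κB consensus, found in 3.90% of 32851 promoters of that length, for the core of the antioxidant response element (TGACNNNGC), found in 10.2%, and for the AP-1 site (TGANTCA), found in 6.75%. *Sod2* held 1 match to the NF-κB consensus, starting 83 bases upstream. *Prdx1* held 1 match to the NF-κB consensus, 2 to AP-1 and 1 to the antioxidant response element, the last overlapping 1 of the AP-1 matches. *Sod1* held 1 match to the antioxidant response element, and the windows of *Prdx5*, *Gpx1*, *Gpx4*, *Cat* and *Txn1* held none. A match is a description of letters and not of a factor bound there. The parts of the *Sod2* and *Prdx1* windows that lie outside exons in GENCODE are printed with the matches in capitals, at chr17:13007589-13007816 (228 bases) and chr4:116685349-116685543 (195 bases), both on the plus strand. The *Sod2* stretch lies inside the annotated gene, in an intron of a transcript that starts further upstream.
Sod2: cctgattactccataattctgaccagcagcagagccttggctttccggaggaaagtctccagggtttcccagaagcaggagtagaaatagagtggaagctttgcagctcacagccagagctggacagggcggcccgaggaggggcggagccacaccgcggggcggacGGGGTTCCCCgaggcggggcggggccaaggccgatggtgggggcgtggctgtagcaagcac
Prdx1: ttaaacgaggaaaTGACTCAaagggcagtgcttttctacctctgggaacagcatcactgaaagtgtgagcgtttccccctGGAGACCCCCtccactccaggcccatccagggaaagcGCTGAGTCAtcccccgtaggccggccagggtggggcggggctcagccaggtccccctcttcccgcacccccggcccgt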

How the data were processed

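The deposited tables hold whole-gene signal as normalized counts: per the file headers and labels, the authors used STAR 2.7.3a on mm10 for strand-specific paired-end poly-A reads, RSEM for counting and DESeq2 size factors, computed for each pair of conditions. The authors' columns of log2 fold change, p and adjusted p were not used here. Dividing by each library's value of 1 read gave whole reads (100% within 0.01), the same in every table, and depths of 2016139 to 11570122 reads limit the precision of low genes. Within each table of 6 libraries, limma 3.58.1 (R 4.3.3) with an intensity trend was fitted to log2(normalized count + 1) for genes with a mean of at least 10, with Benjamini-Hochberg adjustment over all genes. Joint fits of 12 libraries, scaled by median of ratios, gave the difference between genotypes' responses, the response of *SOD1* G93A astrocytes and the difference between cell types. The sixth table, WT quiescent against *SOD1* G93A LPS microglia, was used for levels alone. Alternatives were DESeq2 1.42.0, edgeR 4.0.16, other pseudocounts, filters and scalings, a replicate block, each library left out and, added after seeing the data, depth as a covariate. The fits were tested on simulated data. Positions and lengths are from GENCODE M21. All 10 genes were reported in each comparison, by value or range, with genes of 7 pathway lists past the limits of the study (at most the 8 largest changes, or where none did, up to 3 with an adjusted p below 0.05) and *Cybb*, *Cyba*, *Nfe2l2*, *Txnrd1* and *Gsr*; in the 3 joint contrasts fewer of these pathway genes are printed. The genes and lists were chosen with earlier results of these data known. The p-values measure only the spread between these libraries, since the labels do not say whether replicates are separate animals or cultures.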

Additional observations from a re-analysis of the deposited data

Results flagged for a closer look

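*Sod1* and *Gpx1* changed in opposite directions in the 2 cell types, and the difference was tested. *Sod1* fell with LPS in WT microglia and rose with the cytokine mixture in WT astrocytes, a difference of -0.80 on the log2 scale (limma, adjusted p = 0.000163). Its rise in astrocytes (0.25, adjusted p = 0.0367) was lost in DESeq2 (0.052), in limma without a trend (0.0874) and with each of 4 of the 6 libraries left out in turn, over a range of 0.000294 to 0.146. *Gpx1* fell with LPS in microglia and rose with cytokines in astrocytes, a difference of -2.85 (limma, adjusted p = 1.06e-08). Agent, medium and cell type changed together and cannot be told apart.

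*Cat* values of the genotypes lay in opposite order in the 2 stimulated cell types, and passed the test in neither. All 3 *SOD1* G93A LPS-treated microglia libraries (1191, 1030.4 and 1464 normalized counts) lay above all WT ones (873, 967 and 922), at 0.40 on the log2 scale (adjusted p = 0.571), or 0.27 without *SOD1* G93A replicate 3, the library that stood apart (0.886, range 0.196 to 0.886). All 3 *SOD1* G93A activated astrocyte libraries (669, 687 and 688) lay below all WT ones (804, 728 and 689), the nearest 2 by about 1 count, at -0.12 (0.363), or -0.18 to -0.06 over the alternatives. The difference between them was not tested. The share of all genes without overlap is not given here, so the opposite order is not read as a difference between genotypes.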

How the results depend on the processing

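Over the alternatives, 1313 values of the 10 genes kept their side of the threshold, 45 lost it, 16 gained it and 0 that passed in either fit changed direction. Of 1173 values that passed in neither, over these and the other genes named, 69 changed sign. Members called between genotypes in quiescent astrocytes numbered 0, against 1 in DESeq2 and 2 with depth as a covariate. Between genotypes in activated astrocytes they numbered 2, against 0 without a trend in limma, 0 with depth as a covariate, 0 under the limits of the study and 1 to 3 with 1 library left out. Under the limits of the study they numbered 2 in place of 7 with activation of WT astrocytes, 2 in place of 8 with activation of *SOD1* G93A astrocytes and 3 in place of 8 with LPS in WT microglia. With depth as a covariate, WT astrocyte activation called 10 in place of 7, and 6308 in place of 4722 over all genes. The cause was not tested; the limits of the study ask for a larger change by construction. With 1 library left out the counts were 6 to 9, 6 to 9 and 7 to 8 in those 3, 8 to 9 for the difference between cell types and 0 in the other 2 genotype comparisons and the difference of responses. Over all genes they were 3608 to 5488, 4491 to 5813 and 5327 to 6797 in those 3, and 4439 to 5313 for the difference between cell types. Between genotypes, all-gene counts were 1 to 6 (quiescent astrocytes), 391 to 1168 (activated astrocytes) and 0 to 2 (LPS microglia). For the difference of responses they were 13 to 69. With replicate number as a block, the counts were 0, 7, 8, 3, 0, 0, 8 and 9 in the order quiescent genotype, WT activation, LPS, activated genotype, LPS genotype, difference of responses, *SOD1* G93A activation and difference between cell types, the third gene of the activated genotype comparison being *Sod2* (adjusted p = 0.0372). The numbers of all genes called with that block, in edgeR and in DESeq2 are not given here, so those counts cannot be set against them. Deviations of libraries with the same number had r of -0.436 to 0.0587 over the pairs. The lowest, -0.400 for replicate 1 and -0.436 for replicate 3, lay between the genotypes of quiescent astrocytes. There the depths of the replicates ran in opposite order, and the part of depth in these r values was not tested. All other pairs lay between -0.0718 and 0.0587. Depth limits *Sod3* in microglia, at 3 to 33 reads. DESeq2 gave no adjusted p for 3 values between genotypes (*Sod3* in quiescent astrocytes, *Sod3* and *Ccs* in LPS-treated microglia).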
